A study of Mus musculus with 17 samples.

Results

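The genes described here are 10 claudin and tight junction genes of the mouse colon, taken as the entries of the deposited count table whose symbol equals Cldn2, Cldn3, Cldn4, Cldn7, Cldn8, Cldn15, Cldn23, Ocln, Tjp1 or F11r. Each of the 10 was found, among 23719 entries in the table. The study examined how pyridostigmine bromide (PB), an inhibitor of acetylcholinesterase, affects the colon and its motility in a model of Gulf War illness. All animals were male C57BL/6 mice aged 32 to 34 weeks. The 9 Control mice received plain water, and the 8 GWI mice drank water with PB at 2 mg/kg over 7 days followed by 21 days without it. Colon explants were collected at day 30 and sequenced as poly(A)-selected RNA, in 17 libraries that the labels number as replicates of their group and that are called mice here. The labels name no batch and do not say which layers or which segment of the colon an explant held. The comparison asks whether mRNA levels of tight junction genes differed between GWI colons and control colons after the recovery period.

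Tight junctions seal the space between neighbouring epithelial cells and set which ions and how much water pass between them. Claudins are membrane proteins that form the strands of the junction. Some of them, such as claudin-2 and claudin-15, form pores for small cations and others mainly tighten the barrier, while occludin and junctional adhesion molecule A lie beside them in the membrane and ZO-1 ties the complex to actin. In the colon these proteins are made mainly by the epithelium, and claudin-2 is known from the crypts.

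The total count per library lay between 16744096 and 20741212 in the Control mice and between 16293537 and 18389686 in the GWI mice. Genes with at least 1 count numbered 16718 to 17236 in Control libraries and 16578 to 16788 in GWI libraries. Levels are given as CPM, the count of a gene scaled to the size of its library, after correction of library sizes by the trimmed mean of M values (TMM). The 10 genes had between 147 counts in a library, for Cldn8, and 13556, for Cldn7, so that none of them was limited by low counts.

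Some sample names share a first part, which the labels do not explain. By these first parts the Control libraries fall into 6 sets, 2 of them with several libraries, and the GWI libraries into 4 sets, 3 of them with several. The mean squared difference per gene between libraries, in units of counting error, had a lower median among Control libraries of a set than among other Control libraries. It was 18.8 over 4 pairs within a set and 118 over the other 32 pairs. The other pairs include all those of Control 1 and Control 9, which share a first part with no library and lie at 105 to 393. The lowest of the other pairs, 20.8 for Control 2 and Control 5, was below Control 7 and Control 8 of a set, at 24.5. This was not so for the GWI libraries, with 37.8 over 5 pairs within a set and 32.8 over the other 23 pairs. The lowest of all 136 pairs was 9.50, between Control 4 and Control 5, which share a first part. The tests treat the 17 libraries as independent, and the calls with the counts of each set summed are given beside those of the 10 genes and of each gene list.

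Several libraries stood apart from the others of their group. Control 1 had the most RNA of Hoxa13 and Hoxb13 among the Control mice, with 71.0 and 55.4 CPM, and GWI 5 the most among the GWI mice, with 75.2 and 11.4 CPM. Hoxa13 was at 16.1 CPM in GWI 4 and between 1.58 and 5.78 CPM in the other 14 mice. These genes are expressed toward the distal end of the gut. The same pair of mice had the least RNA of Sis, which encodes the brush-border enzyme sucrase-isomaltase, with 0.821 CPM in Control 1 and 1.32 CPM in GWI 5, against 14.4 to 193 CPM elsewhere. In Control 9 the 10 most abundant genes took 23.1% of all counts, against 9.72% in Control 6, the lowest. Fabp6, a bile acid binding protein of the ileum, reached 118 CPM in Control 6 and 314 CPM in Control 7 and no more than 6.90 CPM in any other mouse. On the principal component with the largest share of variance, 34.6%, Control 1 and GWI 5 lay lowest of their groups, at -72.0 and -40.1. Calls of the 10 genes that change without Control 1, Control 9 or GWI 5 are given with and without them.

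In the comparison of GWI with Control, mRNA of 5 of the 10 genes was higher in GWI colons at an adjusted p under 0.05 in edgeR, and 0 were lower. The 5 were Cldn3, Cldn4, Cldn8, Cldn23 and F11r, with fold changes from 1.33 for F11r to 2.34 for Cldn4. Of all 14146 genes tested, 13.4% were called higher (1889) and 13.5% lower (1903), and upper-quartile scaling gave 1214 and 2992. At an unadjusted p under 0.05 edgeR gave 7 of the 10 higher and 0 lower. DESeq2 gave 6 and 0 at its adjusted p, and limma-voom with sample quality weights 9 and 0. Among all genes DESeq2 called 2171 higher and 2444 lower, and limma-voom 3911 and 4180. With the counts of libraries that share a first part of their name summed, which leaves 6 Control and 4 GWI sets, edgeR called 0 of the 10 higher and 0 lower, and 14 of all genes higher and 1 lower. On these sets an unadjusted p under 0.05 gave 3 and 0 of the 10, DESeq2 0 and 0, and limma-voom 7 and 0, and all 10 fitted values were positive. The shares of all genes at an unadjusted p, and by DESeq2 or limma-voom on these sets, are not given here. Those counts of members, and the matching counts of the gene lists below, therefore stand without a background. Summing changes the number of units and the genes tested as well, and why the calls ended was not tested. The median log2 fold change was 0.47 over the 10 genes and -0.06 over all genes tested. With the 17 libraries all 10 fitted values were positive too, although that of Cldn15 turned negative under upper-quartile scaling.

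The 10 genes together made up 1451, 1814 and 2418 CPM at the lowest, median and highest of the Control mice. In GWI mice the same sum was 2393, 2558 and 2867 CPM. The groups overlapped on this sum through Control 1, the highest control. In bulk samples, a change in how many cells of a type are present and a change in RNA per cell cannot be told apart. No gene of the 10 had every GWI mouse above every Control mouse, a pattern that 1.83% of all tested genes showed (259).

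The coefficient of variation among Control mice ran from 19.8% for F11r to 58.7% for Cldn4, and among GWI mice from 7.46% for Ocln to 44.2% for Cldn2. It was lower in GWI mice for each of the 10 genes and for 81.1% of all genes tested, a difference that was not tested. Control 1 widened the Control spread of Cldn23 (105 CPM, next Control mouse 57.5) and of Tjp1 (192 CPM, next 116). The coefficient of variation without Control 1 was not calculated. The SD in CPM was lower in GWI mice for 7 of the 10 and higher for Cldn2, Cldn4 and Cldn8.

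**Figure D1:**
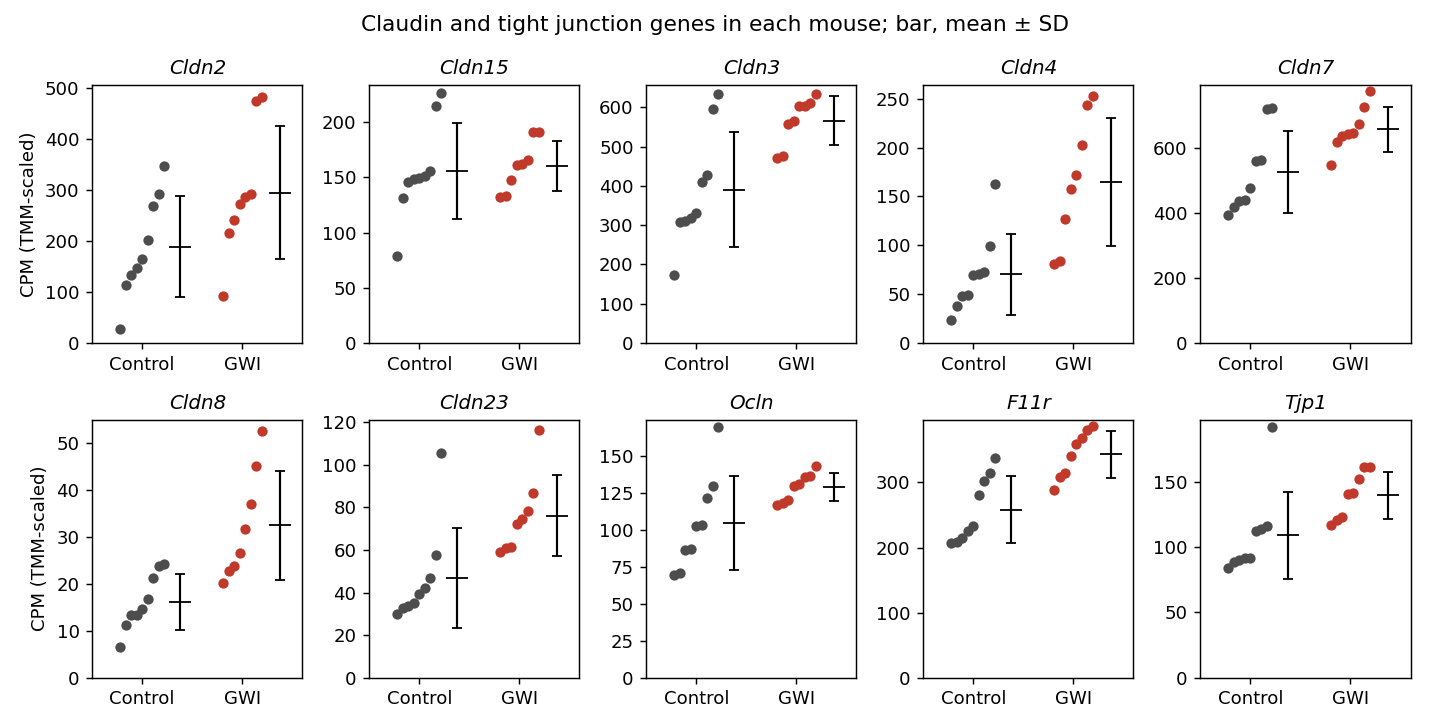
TMM-scaled CPM (vertical axis, from 0) of each of the 10 genes in 9 Control and 8 GWI mice. Each point is a mouse, sorted by level within its group, and the bar gives mean ± SD; GWI mice lie mostly above the controls for Cldn4, Cldn8 and F11r, while for Cldn15 they lie within the range of the controls.

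The pore-forming claudins come first. Claudin-2 forms a paracellular channel for sodium and water. Cldn2 mRNA was 28.2, 164 and 346 CPM at the lowest, median and highest of the Control mice and 92.9, 280.0 and 484 CPM in GWI mice. Control 1 was the lowest of all mice and GWI 5 the lowest GWI mouse, and 2 GWI mice, GWI 1 and GWI 3, lay above every control. The log2 fold change was 0.64 (SE 0.37, adjusted p = 0.191 in edgeR, n = 9 and 8), so Cldn2 did not pass the test. Over 12 other fits this value ranged more widely than that of any other member. It was 1.68 (adjusted p = 0.0247) with the colon epithelium score of each mouse as a covariate and 0.0044 with the smooth muscle score, and limma-voom gave 0.67 (adjusted p = 0.0340). Its adjusted p lay between 0.0247 and 0.994 over these fits.

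Claudin-15 forms a pore for small cations and is best known from the small intestine. Cldn15 mRNA was 78.3, 149 and 226 CPM in Control mice and 132, 162 and 191 CPM in GWI mice. The GWI mice lay inside the range of the controls, of which Control 7 and Control 8 stood above every GWI mouse and Control 1 and Control 4 below every GWI mouse. The log2 fold change was 0.044 (SE 0.16, adjusted p = 0.850 in edgeR), and no direction can be given, since it was -0.032 without Control 1, -0.052 with upper-quartile scaling and -0.18 with the smooth muscle score as a covariate. Over 12 other fits the adjusted p ran from 0.159 to 0.888.

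Among claudins that are mainly barrier-forming, claudin-4 is a regulated claudin that restricts sodium in many epithelia. Cldn4 mRNA was 23.3, 69.8 and 163 CPM in Control mice and 80.6, 165 and 253 CPM in GWI mice. GWI 5, GWI 6, GWI 7 and GWI 2 lay above every control, 7 controls lay below every GWI mouse, and Control 6 and Control 1 reached into the GWI range. Cldn4 rose 2.34-fold, a log2 fold change of 1.23 (SE 0.32, adjusted p = 0.0114 in edgeR). The adjusted p stayed under 0.05 in 10 of 12 other fits, between 0.000278 and 0.0305. It was 0.256 with the epithelium score as a covariate, where the log2 fold change was 0.53, and 0.154 with the counts summed by name (1.14). With any of the 17 mice left out in turn the value lay between 1.11 and 1.49.

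Claudin-8 is a claudin of the distal colon and the distal nephron, where it partners with claudin-4. Cldn8 mRNA was 6.51, 14.7 and 24.2 CPM in Control mice and 20.2, 29.1 and 52.6 CPM in GWI mice. In 5 GWI mice it was above every control and in 6 Control mice below every GWI mouse, with Control 8, Control 9 and Control 1 in the overlap. Cldn8 rose 2.01-fold, a log2 fold change of 1.01 (SE 0.24, adjusted p = 0.00746 in edgeR). It passed in 10 of 12 other fits, with adjusted p from 0.000114 at the lowest. It did not pass with the epithelium score as a covariate (0.86, adjusted p = 0.0715) or with the counts summed by name (0.87, adjusted p = 0.158).

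Claudin-3 is a sealing claudin found along the whole intestine. Cldn3 mRNA was 173, 331 and 634 CPM in Control mice and 470.1, 585 and 634 CPM in GWI mice. Control 9 was far below the rest, Control 1 was below GWI 5 alone and Control 2 below 4 GWI mice, and the other 6 controls also lay below every GWI mouse. Cldn3 rose 1.45-fold, a log2 fold change of 0.54 (SE 0.19, adjusted p = 0.0464 in edgeR). This call was close to the threshold. Leaving out 1 mouse at a time kept it in 4 of 17 fits, those without Control 1, Control 2, Control 9 or GWI 1, with adjusted p from 0.0105 to 0.0796. Upper-quartile scaling gave 0.44 (adjusted p = 0.0839) and the fit without a filter 0.53 (adjusted p = 0.0641). With the counts summed by name it was 0.50 (adjusted p = 0.355). Over 12 other fits the adjusted p ran from 0.00229 to 0.558, and 7 of them kept the call.

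Claudin-23 is a claudin of differentiated surface epithelium in the colon. Cldn23 mRNA was 29.7, 39.5 and 105 CPM in Control mice and 58.8, 73.4 and 117 CPM in GWI mice. All Control mice but Control 1 lay below every GWI mouse, and Control 1 lay above all GWI mice but GWI 5. Cldn23 rose 1.62-fold, a log2 fold change of 0.70 (SE 0.22, adjusted p = 0.0285 in edgeR). Without Control 1 the value was 0.95 (adjusted p = 0.000336), and the adjusted p passed 0.05 without Control 3 (0.0516), GWI 5 (0.0563) or GWI 6 (0.0533). It passed in 10 of 12 other fits, with adjusted p between 0.000125 and 0.399, the highest with the epithelium score as a covariate, and had 0.56 (adjusted p = 0.295) with the counts summed by name.

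Claudin-7 binds the adhesion protein EpCAM. Cldn7 mRNA was 393, 477 and 725 CPM in Control mice and 549, 645 and 777 CPM in GWI mice. Control 1 and Control 2 were as high as the upper GWI mice, 5 controls lay below every GWI mouse, and 2 GWI mice lay above every control. The log2 fold change was 0.32 (SE 0.13, adjusted p = 0.0735 in edgeR), which did not pass. Without Control 1 it was 0.40 (adjusted p = 0.0213) and without Control 2 the adjusted p was 0.0313, and in 17 such fits it ran to 0.138. DESeq2 gave adjusted p = 0.0481, within a range of 0.0122 to 0.991 over 12 other fits. With the epithelium score as a covariate the value turned to -0.0020.

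Of the other proteins, junctional adhesion molecule A, encoded by F11r, is an immunoglobulin-type adhesion protein that helps to place the junction. F11r mRNA was 207, 233 and 338 CPM in Control mice and 288, 350.1 and 387 CPM in GWI mice. In 5 GWI mice it was above every control, and 6 controls were below every GWI mouse, with Control 1, Control 2 and Control 5 in the overlap. F11r rose 1.33-fold, a log2 fold change of 0.41 (SE 0.12, adjusted p = 0.0162 in edgeR), and it passed with any of the 17 mice left out. Among 12 other fits 9 kept the call, with adjusted p from 0.00220 to 0.286, the highest with the epithelium score as a covariate (0.15). With the counts summed by name it was 0.42 (adjusted p = 0.208).

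Occludin, encoded by Ocln, is a membrane protein enriched where cells meet and takes part in junction remodelling. Ocln mRNA was 69.7, 103 and 169.9 CPM in Control mice and 117, 130.5 and 144 CPM in GWI mice. The GWI mice were tightly grouped inside the range of the controls, with 6 controls below them all and Control 9 above them all. The log2 fold change was 0.30 (SE 0.15, adjusted p = 0.130 in edgeR) and did not pass. Without Control 9 it was 0.42 (adjusted p = 0.0175), in a range of 0.0175 to 0.213 over the 17 fits with a mouse left out. The limma-voom value was 0.60, with adjusted p = 6.31e-05, against up to 0.517 over 12 other fits.

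ZO-1, encoded by Tjp1, is the scaffold that links claudins and occludin to the actin cytoskeleton. Tjp1 mRNA was 83.9, 92.0 and 192 CPM in Control mice and 117, 141 and 162 CPM in GWI mice. Control 1 was above every GWI mouse and the other 8 controls were below every GWI mouse. The log2 fold change was 0.36 (SE 0.15, adjusted p = 0.0721 in edgeR) and did not pass with all 17 mice. Without Control 1 it was 0.51 with adjusted p = 0.000878, and with any other mouse left out it did not pass, with adjusted p up to 0.130. Over 12 other fits the adjusted p ran from 9.82e-05 with limma-voom to 0.755 with the epithelium score as a covariate.

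Without both Control 1 and Control 9, 8 of the 10 genes were called higher and 0 lower. That fit called 2787 of all 14161 genes tested higher and 2844 lower. Without both Control 1 and GWI 5, 7 of the 10 were called higher and 0 lower, namely Cldn3, Cldn4, Cldn7, Cldn8, Cldn23, Tjp1 and F11r. In this fit 2466 of all 14152 genes tested were higher and 2477 lower. The rule of the study's methods was a log2 fold change beyond 1 in either direction together with an unadjusted p under 0.05. On edgeR values it was met by 2 of the 10, Cldn4 and Cldn8, and among all genes by 92 higher and 250 lower. On values of the DESeq2 Wald test, the tool of the study, it was met by 1, Cldn4 (1.22), with Cldn8 at 0.997. Among all genes 108 higher and 265 lower met the rule on DESeq2 values.

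**Figure D2:**
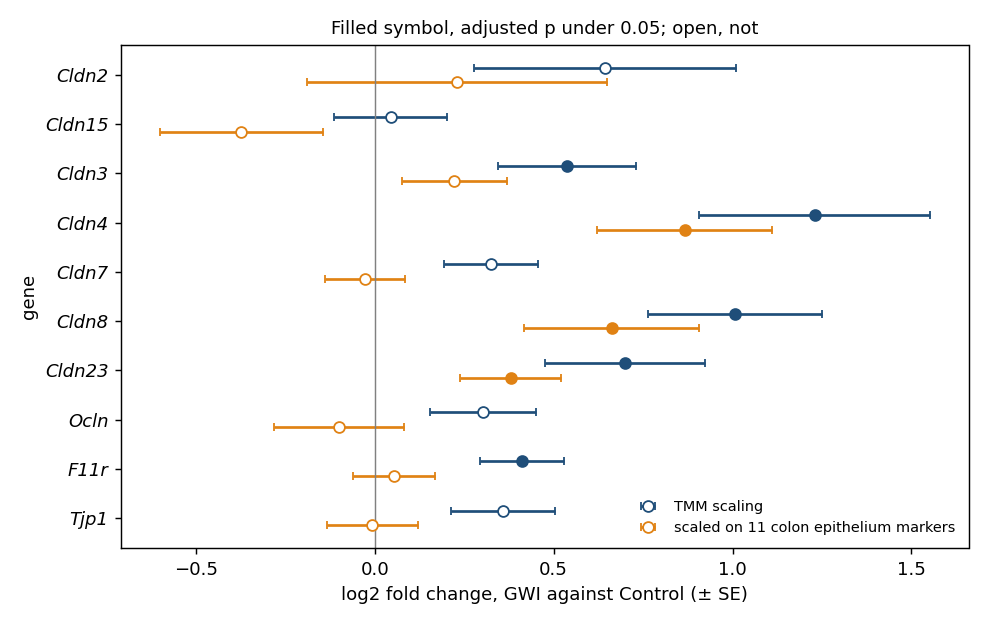
Log2 fold change of GWI against Control (horizontal axis, bars ± SE, 9 and 8 mice) of each of the 10 genes, with TMM scaling and with scaling on 11 colon epithelium markers; filled symbols have an adjusted p under 0.05 in edgeR. Cldn4, Cldn8 and Cldn23 are filled on both scales, and Cldn3 and F11r with TMM scaling only.

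Markers of epithelium and of muscle differed between the groups beside these genes. Of 11 colon epithelium markers 4 were higher and 0 lower, against 13.4% and 13.5% of all genes tested. Their log2 fold changes were not uniform and ran from -0.15 to 0.91, with 8 positive and a median of 0.40. The summed level of the 11 was 11679, 14380 and 21550 CPM at the lowest, median and highest of the Control mice and 14317, 19157 and 21407 CPM in GWI mice. Krt8, a keratin, was the most abundant of them, with a log2 fold change of 0.40 (adjusted p = 0.107 in edgeR), and Vil1, which encodes the microvillus protein villin, rose by 0.64 (adjusted p = 0.0168). Unadjusted edgeR, DESeq2 and limma-voom gave 0 of the 11 lower too, with 6, 5 and 7 higher. With the counts summed by name edgeR called 0 higher and 0 lower, with 1 and 0 at an unadjusted p, 0 and 0 by DESeq2 and 4 and 0 by limma-voom. No marker of this list or of the others described here was at 0 in a whole group. What part this difference had in the levels of the 10 genes was not tested.

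Of 10 smooth muscle markers 0 were higher and 7 lower, with a median log2 fold change of -0.91. Unadjusted edgeR gave 0 higher and 10 lower, DESeq2 0 and 9, and limma-voom 0 and 10. Their summed level was 3687, 11576 and 23906 CPM in Control mice and 3656, 5138 and 11823 CPM in GWI mice. Myh11, the smooth muscle myosin heavy chain, was the most abundant and fell by 1.10 on the log2 scale (adjusted p = 0.0407 in edgeR), and Tagln fell by 1.17 (adjusted p = 0.00628). Of the list, edgeR on the counts summed by name called 0 higher and 0 lower, with 0 and 7 at an unadjusted p, 0 and 3 by DESeq2 and 0 and 10 by limma-voom. The part of this difference in the levels of the 10 genes was not tested either.

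When libraries were scaled so that the mean log2 CPM of the 11 epithelium markers was equal in all mice, 3 of the 10 genes were higher and 0 lower. On this scale 1.7% of all genes tested were higher (241) and 41.4% lower (5859), and the median of all genes moved by -0.40, to -0.45. Of the 11 markers themselves 1 was called higher and 1 lower on this scale. Cldn4 was 0.87 higher (SE 0.24, adjusted p = 0.00966 in edgeR), Cldn8 0.66 higher (SE 0.24, adjusted p = 0.0342) and Cldn23 0.38 higher (SE 0.14, adjusted p = 0.0362), each relative to the markers. Cldn4 passed with any of the 17 mice left out, while Cldn8 and Cldn23 each passed in 8 of 17 such fits, with adjusted p up to 0.0790 and 0.0881. Cldn8 did not pass without Control 1 and GWI 5 (0.58, adjusted p = 0.0657) and Cldn23 did not pass under scaling on Epcam alone (0.46, adjusted p = 0.0522), so that 2 were higher in either case. With the counts summed by name, edgeR gave 0 higher and 0 lower on this scale, with adjusted p of 0.114 for Cldn4, 0.260 for Cldn8 and 0.366 for Cldn23. These were the highest of 4 alternatives, and the lowest were 0.00603, 0.00737 and 0.00225.

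Cldn3 and F11r, called on the CPM scale, did not pass relative to the epithelium markers, at 0.22 (SE 0.15, adjusted p = 0.210) and 0.055 (SE 0.11, adjusted p = 0.705). Cldn7, Tjp1 and Ocln were at -0.027, -0.0069 and -0.10, with signs that turned under scaling on Epcam alone (0.060, 0.087 and 0.021). Cldn2 was at 0.23 (SE 0.42, adjusted p = 0.662). Cldn15 was at -0.37 (SE 0.23, adjusted p = 0.177) with all mice. It was called lower without Control 1 (-0.49, adjusted p = 0.0213), without Control 1 and Control 9 (-0.48, adjusted p = 0.0256) and without Control 1 and GWI 5 (-0.45, adjusted p = 0.0416). In the 17 fits with a mouse left out its adjusted p ran from 0.0213 to 0.351, and it was 0.278 under scaling on Epcam alone and 0.452 with the counts summed by name.

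With the epithelium score as a covariate in the edgeR fit in place of a scaling, Cldn2 was the only one of the 10 called higher and 0 were called lower. The same fit called 588 of all genes higher and 364 lower. The score was higher in GWI mice, with a mean of 10.2 (SD 0.205, n = 8) against 9.85 (SD 0.301, n = 9), so that score and group overlap in what they describe.

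Across the 17 mice, after subtraction of the group means, the 10 genes followed the epithelium score in different ways. Pearson's r with the score was 0.92 for Cldn7, 0.90 for Cldn23, 0.83 for F11r, 0.79 for Cldn3, 0.71 for Cldn4 and 0.70 for Tjp1. Cldn8 and Ocln had r of 0.27 and 0.18. The pore-forming members ran the other way, with -0.61 for Cldn15 and -0.73 for Cldn2. With the distal Hox genes r was 0.76 for Cldn4, -0.67 for Cldn2 and -0.04 for Cldn8, and with the smooth muscle score 0.70 for Cldn4 and -0.58 for Cldn2. These are descriptions over 17 mice that share a library for both measures, without a test.

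Of 10 small intestine genes 6 could be tested, and 1 was higher and 1 lower, with a median log2 fold change of -0.55. An unadjusted p and DESeq2 gave 1 and 1 as well, and limma-voom 1 and 0. Alpi, intestinal alkaline phosphatase, rose by 0.92 (adjusted p = 0.0376 in edgeR), while Fabp6 fell by 4.40 (adjusted p = 0.00880), a value set by Control 6 and Control 7. Fabp2, a fatty acid binding protein, was the most abundant of the list, at -0.41 (adjusted p = 0.269). The list summed to 652, 872 and 2454 CPM in Control mice and 431, 862 and 1087 CPM in GWI mice. Of 6 distal Hox genes 5 could be tested and edgeR called 0 higher and 0 lower, with 0 and 2 at an unadjusted p, by DESeq2 and by limma-voom. They summed to 15.2, 28.7 and 129 CPM in Control mice and 9.44, 13.2 and 89.0 CPM in GWI mice, with Hoxa13 the most abundant (0.20, adjusted p = 0.882) and a median log2 fold change of -1.04.

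Of 7 endothelium markers 0 were higher and 4 lower, with a median of -0.67. Unadjusted edgeR gave 0 higher and 5 lower, DESeq2 0 and 4, and limma-voom 0 and 6. Emcn, which encodes endomucin, fell by 0.80 (adjusted p = 0.00468 in edgeR), and Pecam1, the most abundant, was at -0.29 (adjusted p = 0.347). The list summed to 48.8, 115 and 184 CPM in Control mice and 49.9, 78.4 and 107 CPM in GWI mice. Of 5 mesothelium markers 0 were higher and 0 lower in edgeR, at an unadjusted p, in DESeq2 and in limma-voom, with a median of -0.07 and Upk1b as the most abundant (0.14, adjusted p = 0.681).

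Of 5 enteric glia markers 1 was higher and 1 lower, against 1 and 3 at an unadjusted p, by DESeq2 and by limma-voom, with a median of -0.74 and summed levels of 192, 241 and 402 CPM in Control mice and 387, 437 and 512 CPM in GWI mice. The gene that rose was Erbb3, the most abundant, by 0.91 (adjusted p = 0.00105 in edgeR) with all 8 GWI mice above every control. Erbb3, a receptor for neuregulin, is also made by epithelium. Of 6 leukocyte markers 4 could be tested and edgeR called 0 higher and 0 lower, with 0 and 0 at an unadjusted p and by DESeq2 and 0 and 2 by limma-voom. Ptprc, the pan-leukocyte phosphatase CD45, was the most abundant, at -0.21 (adjusted p = 0.448), and the median was -0.28. On the counts summed by name edgeR called 0 higher and 0 lower in each of these 6 lists, from small intestine to leukocytes. At an unadjusted p it gave 1 and 2 small intestine genes, 0 and 3 endothelium markers, 1 and 1 enteric glia markers and 0 and 0 of the other lists. DESeq2 gave 0 and 2 small intestine genes, 0 and 2 endothelium markers, 1 and 1 enteric glia markers and 0 and 0 of the others. By limma-voom there were 1 and 0 small intestine genes, 0 and 2 distal Hox genes, 0 and 5 endothelium markers, 1 and 3 enteric glia markers and 0 and 0 of the others. What these lists contributed to the levels of the 10 genes was not tested.

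Levels were compared between the genes per kilobase of annotated exon, as CPM per kilobase. On this scale Cldn3 had the highest level in control colons, 309.7 ± 116 (SD, n = 9), followed by Cldn7 at 270.2 ± 64.7. F11r was at 96.9 ± 19.2, Cldn15 at 73.3 ± 20.6 and Cldn2 at 56.8 ± 29.8. Cldn4 had 38.7 ± 22.7, Cldn23 25.4 ± 12.7, Ocln 24.8 ± 7.58 and Tjp1 14.0 ± 4.28, and Cldn8 was lowest with 6.85 ± 2.54. Of neighbours in this order, the intervals of 1 SD around the mean were separate only between Cldn7 and F11r and between Tjp1 and Cldn8. Cldn3 nevertheless exceeded Cldn7 in 8 of 9 Control mice.

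In GWI colons the level per kilobase was 449 ± 49.6 (SD, n = 8) for Cldn3 and 338 ± 35.5 for Cldn7. F11r followed at 129 ± 13.7, then Cldn4 at 90.8 ± 36.3, Cldn2 at 88.7 ± 39.2 and Cldn15 at 75.6 ± 10.6. Cldn4 stood above Cldn2 and Cldn15 here and below both in control colons, although the SD intervals of the 3 genes overlapped in GWI colons. Cldn23 had 41.2 ± 10.3, Ocln 30.6 ± 2.28, Tjp1 17.9 ± 2.29 and Cldn8 13.7 ± 4.91. Neighbours with separate intervals were Cldn3 and Cldn7, Cldn7 and F11r, Cldn15 and Cldn23, and Ocln and Tjp1.

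The members moved together in sets from mouse to mouse. Over 45 pairs, with group means subtracted and 17 mice, Pearson's r was over 0.5 in 14 pairs and under -0.5 in 10. The pore-forming Cldn2 and Cldn15 went together, with r = 0.85, Spearman's rho = 0.71 and r = 0.78 over the 15 mice left without the 2 farthest in Cldn2, which were Control 1 and GWI 5. Cldn7 and F11r had r = 0.92, rho = 0.93 and r = 0.89 without the 2 farthest. Cldn3 and Cldn7 had r = 0.90, rho = 0.89 and r = 0.92, and Cldn3 and F11r had 0.86, 0.88 and 0.88 in the same order.

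Cldn2 ran opposite to several barrier genes. With Cldn4 it had r = -0.80, rho = -0.69 and r = -0.71 without Control 1 and GWI 5. With Cldn23 it had r = -0.88 and rho = -0.63, and r was -0.59 without these mice. With Tjp1 the values were -0.86, -0.66 and -0.65. Control 1 and GWI 5 thus carried part of the relation of Cldn2 with Cldn23 and with Tjp1. The relation of Cldn23 with Tjp1 likewise went from r = 0.85 (rho = 0.63) to 0.59 without that pair of mice, and that of Cldn4 with Cldn23 from 0.81 (rho = 0.83) to 0.72. Cldn8 had its highest r with another member, 0.44, with Ocln. Its r with Cldn4 was -0.13 (rho = -0.10) and went to -0.60 without Control 1 and GWI 5, and that with Cldn2 went from -0.32 (rho = -0.18) to 0.22.

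**Figure D3:**
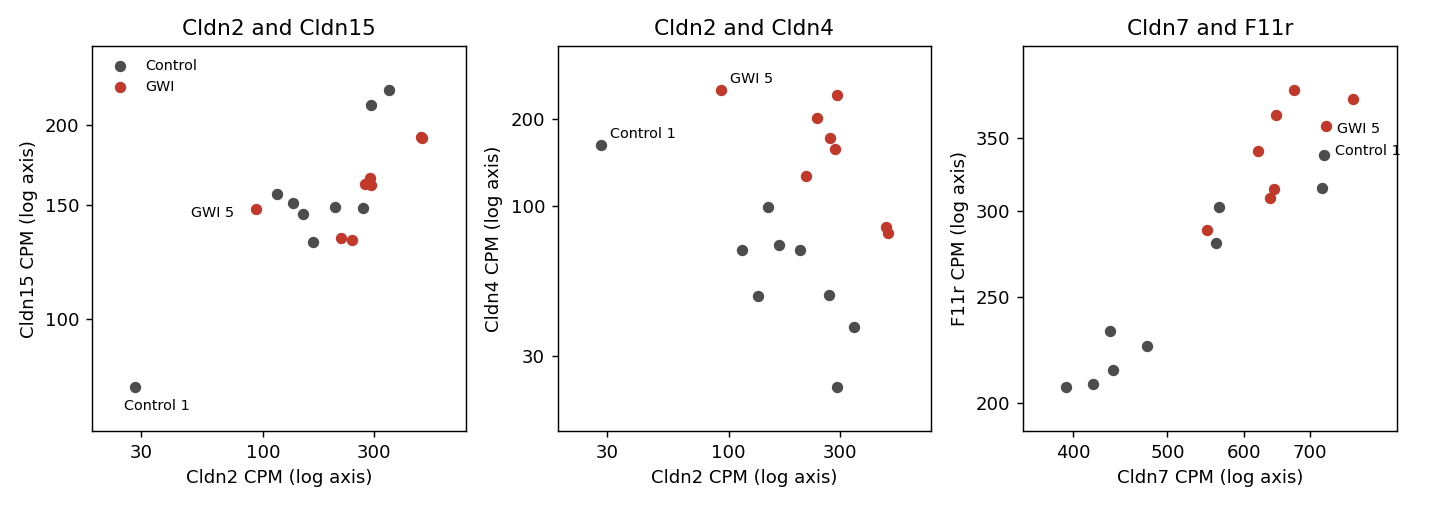
TMM-scaled CPM on log axes of Cldn15 against Cldn2, Cldn4 against Cldn2 and F11r against Cldn7, without subtraction of group means; each point is 1 of 17 mice, with Control 1 and GWI 5 named. Cldn15 is high where Cldn2 is high, Cldn4 is lower within each group where Cldn2 is high, and F11r follows Cldn7.

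For each member the 2 most similar of all tested genes were taken by the same r over 17 mice. For Cldn2 they were Cmah (0.95) and Gjb1 (0.95), a CMP-sialic acid hydroxylase and a connexin, and for Cldn15 they were B3gnt6 (0.95) and Txndc5 (0.93). Cldn3 was most like Prss32 (0.98) and the adherens junction gene Nectin2 (0.96), and Cldn4 most like Rhod (0.96) and the phosphatase gene Dusp10 (0.95). For Cldn23 they were Myo5b (0.96), a myosin of apical membrane traffic, and Baiap2l1 (0.96). Cldn7 and F11r shared Mall (0.93 and 0.94), with Myl12b (0.95) beside Cldn7 and Sema4a (0.94) beside F11r. Ocln was most like Pigm (0.95) and Grpel2 (0.95), and Tjp1 most like the phosphatase gene Ptpn3 (0.95) and Lmo7 (0.95). Cldn8 had the lowest likeness, with Cadps2 (0.88) and Fut9 (0.83).

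Of the other claudin genes, 18 of 19 listed were in the table and 4 had enough counts to be tested. In edgeR 0 of the 4 were called higher and 0 lower, with 1 and 1 at an unadjusted p, 0 and 1 by DESeq2, and 1 and 1 by limma-voom. Leaving out 1 mouse gave 0 to 2 calls. On the counts summed by name 7 could be tested and edgeR called 0 and 0, with 0 and 1 at an unadjusted p, 0 and 0 by DESeq2, and 1 and 1 by limma-voom. Cldn12, a widely expressed claudin, had 47.5 ± 11.8 CPM in Control mice and 58.1 ± 5.09 CPM in GWI mice, a log2 fold change of 0.29 (adjusted p = 0.0841). Cldn5, the claudin of endothelium, had 10.3 ± 4.26 and 6.44 ± 1.85 CPM, or -0.68 (adjusted p = 0.0580), beside the endothelium markers above. Cldnd1 was the most abundant, with 57.9 ± 12.2 and 61.4 ± 7.74 CPM (0.09, adjusted p = 0.589), and Cldn14 was at 0.12 (adjusted p = 0.828). Cldn13, Cldn16, Cldn18, Cldn22 and Cldn24 had a count of 0 in all 17 mice, and these 5 were named after their values were seen.

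Of 12 other tight junction membrane proteins 5 were higher and 4 lower, with a median log2 fold change of 0.14. Unadjusted edgeR gave 5 and 5, DESeq2 5 and 4, and limma-voom 6 and 5. With 1 mouse left out at a time 5 to 9 in all were called, the fewest without GWI 6. Marveld2, which encodes the tricellular junction protein tricellulin, had 33.2 ± 5.03 CPM in Control mice and 49.0 ± 4.14 CPM in GWI mice. It rose by 0.56 (adjusted p = 0.000754 in edgeR), with 7 of 8 GWI mice above every control. Jam2, an adhesion molecule of endothelium and other cells, fell by 1.05 (adjusted p = 0.00434), from 19.6 ± 7.11 to 9.48 ± 3.11 CPM, with 6 GWI mice below every control. Cxadr, the coxsackie and adenovirus receptor, was the most abundant and rose by 0.57 (adjusted p = 0.0187), from 201 ± 65.8 to 299 ± 38.0 CPM. Relative to the epithelium markers 0 of the 12 were higher and 5 lower, against 1.7% and 41.4% of all genes tested. With the epithelium score as a covariate 2 in all were called. With the counts summed by name edgeR called 0 higher and 0 lower, with 2 and 4 at an unadjusted p, 1 and 2 by DESeq2 and 5 and 4 by limma-voom.

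Of 24 scaffold and polarity genes tested 11 were higher and 1 lower, with a median of 0.34. Unadjusted edgeR gave 15 and 4, DESeq2 12 and 2, and limma-voom 16 and 5. Leaving out 1 mouse gave 11 to 17 in all, the most without Control 1. Tjp3, which encodes the scaffold ZO-3, rose by 0.73 (adjusted p = 0.00134 in edgeR), from 181 ± 43.7 to 301 ± 27.3 CPM. Pard6g, a polarity protein, fell by 0.86 (adjusted p = 0.00781). Ybx3, a Y-box protein that binds ZO-1, was the most abundant and did not pass, at 0.12 (adjusted p = 0.330). Relative to the epithelium markers 3 of the 24 were higher and 5 lower, against 1.7% and 41.4% of all genes tested. With the epithelium score as a covariate 4 in all were called. Of the list, edgeR on the counts summed by name called 0 higher and 0 lower, with 8 and 1 at an unadjusted p, 4 and 1 by DESeq2 and 14 and 2 by limma-voom.

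Of 14 adherens junction and desmosome genes 6 were higher and 0 lower, with a median of 0.41. Unadjusted edgeR and DESeq2 gave 6 and 0 as well, and limma-voom 11 and 0. Leaving out Control 1 gave 9 in all, and any other mouse 6. Dsp, which encodes desmoplakin, rose by 0.82 (adjusted p = 0.00411 in edgeR), from 398 ± 149.8 to 705 ± 116 CPM, and Ctnnb1, encoding beta-catenin and the most abundant of the list, was at 0.15 (adjusted p = 0.209). Relative to the epithelium markers 3 of the 14 were higher and 1 lower, against 1.7% and 41.4% of all genes tested. With the epithelium score as a covariate 0 were called. With the counts summed by name edgeR called 0 higher and 0 lower, with 5 and 0 at an unadjusted p, 0 and 0 by DESeq2 and 6 and 0 by limma-voom.

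Of 14 transcription factors of epithelial junction genes 7 were higher and 4 lower, with a median of 0.36. Unadjusted edgeR and DESeq2 gave 7 and 4 too, and limma-voom 8 and 5. These calls depended on single mice, with 5 in all without GWI 3, 6 without Control 4, Control 6, GWI 4 or GWI 6, and 7 to 11 with any other mouse left out. Ovol1, a repressor of mesenchymal genes in epithelium, rose by 0.87 (adjusted p = 0.000787 in edgeR), from 24.3 ± 6.93 to 44.5 ± 4.66 CPM. Hnf4a, a regulator of intestinal differentiation and the most abundant of the list, rose by 0.42 (adjusted p = 0.0431), from 652 ± 192 to 869.7 ± 114 CPM. Zeb2, a repressor of epithelial genes that is made mostly outside the epithelium, fell by 0.48 (adjusted p = 0.0324). Relative to the epithelium markers 2 of the 14 were higher and 5 lower, against 1.7% and 41.4% of all genes tested. With the epithelium score as a covariate 4 in all were called. Of the list, edgeR on the counts summed by name called 0 higher and 0 lower, with 6 and 3 at an unadjusted p, 2 and 0 by DESeq2 and 7 and 4 by limma-voom.

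Of 7 sodium channel and mineralocorticoid genes, a group with which claudin-8 is known to act in distal colon, 6 were tested, 2 were higher and 0 lower, with a median of 0.35. Unadjusted edgeR gave 4 and 0, DESeq2 3 and 0, and limma-voom 5 and 0. There were 4 in all without Control 1, 3 without Control 9 and 2 without any other mouse. Sgk1, a kinase induced by corticosteroids, rose by 1.27 (adjusted p = 0.00109 in edgeR), from 32.6 to 93.9 CPM in Control mice to 60.5 to 163 CPM in GWI mice, with 6 of 8 GWI mice above every control. Hsd11b2, which inactivates glucocorticoids and was the most abundant, rose by 0.64 (adjusted p = 0.0127), from 109 ± 32.4 to 171 ± 31.5 CPM. Relative to the epithelium markers 1 of the 6 was higher and 0 lower, against 1.7% and 41.4% of all genes tested. With the epithelium score as a covariate 1 was called. On the counts summed by name edgeR called 0 and 0, with 2 and 0 at an unadjusted p, 1 and 0 by DESeq2 and 2 and 0 by limma-voom.

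Of 9 cytokines that act on tight junctions 3 could be tested, of which 2 were called higher and 0 lower in edgeR, at an unadjusted p, by DESeq2 and by limma-voom, with a median of 2.11. Il4 and Ifng, at log2 fold changes of 2.58 (adjusted p = 0.000619 in edgeR) and 2.11 (adjusted p = 0.0394), passed the threshold, and Il6 did not (0.23, adjusted p = 0.345). Ifng was the most abundant. With 1 mouse left out at a time 1 or 2 were called. Relative to the epithelium markers 1 of the 3 was higher and 0 lower, against 1.7% and 41.4% of all genes tested. On the counts summed by name 4 could be tested and edgeR called 1 and 0, with 1 and 0 at an unadjusted p, 1 and 0 by DESeq2 and 3 and 0 by limma-voom. No direction is read from these 3 genes, because their entries differ in form from the rest of the table. The table runs in alphabetical order but for 3 breaks, and 3 entries stand ahead of that order, Il4 and Il6 at places 1 and 2 and 1 other gene. Ifng stands at its own place, 7655. Ifng had 323 to 844 counts in Control 1 to Control 8, 9678 counts in Control 9 and 2377 to 9867 in the GWI mice. Of its 9 counts with 4 digits, 8 (88.9%) use only the digits 5 to 9. That is the highest share among 3478 genes with at least 9 such counts, and the next, Cdc42, has 53.3% and the median gene 0. These comparisons were made after the values were seen. How the entries came to be so is not given in the sources used here. None of the 10 claudin and tight junction genes stands out of order.

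The members lie on 8 chromosomes of GRCm38, as annotated in GENCODE M21, and all are protein-coding. Cldn2 (ENSMUSG00000047230) is at chrX:139800828-139811386 on the plus strand and Cldn15 (ENSMUSG00000001739) at chr5:136966616-136975858 on the plus strand. Cldn3 (ENSMUSG00000070473), at chr5:134986214-134987472 on the plus strand, and Cldn4 (ENSMUSG00000047501), at chr5:134945119-134946934 on the minus strand, are neighbours, with 39279 bases and 0 protein-coding genes between them. Each of these neighbours has a single exon. Cldn7 (ENSMUSG00000018569) is at chr11:69964779-69967885 on the plus strand. Cldn8 (ENSMUSG00000050520) is at chr16:88560828-88563183 and Cldn23 (ENSMUSG00000055976) at chr8:35824712-35826559, both on the minus strand and both within 1 exon block. Ocln (ENSMUSG00000021638) is at chr13:100496507-100552718 and Tjp1 (ENSMUSG00000030516) at chr7:65296165-65527781, both on the minus strand. F11r (ENSMUSG00000038235) is at chr1:171437535-171464603 on the plus strand. Exon bases shared with another gene occur only in Cldn3, whose 40 bases (3.18% of its exon) overlap the antisense gene Wbscr25 on the opposite strand.

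Promoter windows of 300 bases, from 250 before to 50 after a gene's start, were taken from RefSeq (GRCm38.p6) and were found for 8 of the 10 members, in 10 windows. Cldn8 and Cldn23 were the members without one. Of 6 motifs searched on both strands, the share of all 32851 windows that hold them was 13.6% for TATAAA, a core promoter element, 35.7% for GGGCGG (GC box), 11.9% for TTTATG (bound by CDX factors), 20.2% for CAGGTG (an E-box), 7.10% for GTTAAT (bound by HNF1) and 2.09% for AACCNGTT (bound by grainyhead factors). Shown are the windows of Cldn2 and Cldn15, the pore-forming genes that moved together from mouse to mouse, with motif letters in capitals. In Cldn2 (chrX:139800558-139800857, plus strand) TATAAA begins 35 bases before the start and TTTATG 244 bases before it, and in Cldn15 (chr5:136967619-136967918, plus strand) GGGCGG begins 108 bases before the start.
Cldn2: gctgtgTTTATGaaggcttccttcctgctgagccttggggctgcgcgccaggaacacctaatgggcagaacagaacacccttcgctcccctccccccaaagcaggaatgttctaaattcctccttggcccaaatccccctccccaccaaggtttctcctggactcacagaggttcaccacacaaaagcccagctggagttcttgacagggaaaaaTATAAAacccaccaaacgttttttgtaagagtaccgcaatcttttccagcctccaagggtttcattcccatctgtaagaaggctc
Cldn15: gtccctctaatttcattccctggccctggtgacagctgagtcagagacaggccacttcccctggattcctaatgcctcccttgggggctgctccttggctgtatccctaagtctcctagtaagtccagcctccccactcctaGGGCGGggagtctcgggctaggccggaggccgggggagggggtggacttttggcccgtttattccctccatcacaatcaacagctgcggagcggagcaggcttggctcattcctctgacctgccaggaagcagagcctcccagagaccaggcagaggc

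The windows of the neighbours Cldn3 and Cldn4, which were both higher in GWI colons, are shown beside these. Each holds GGGCGG and CAGGTG and neither holds TATAAA or TTTATG. Capitals that spell the complement of a motif mark a match on the opposite strand. Cldn3 is at chr5:134985964-134986263 on the plus strand and Cldn4 at chr5:134946885-134947184 on the minus strand, and Cldn4 has both motifs at 2 places. No window of a member holds GTTAAT or AACCNGTT. A match describes letters in the window and is no measure of binding.
Cldn3: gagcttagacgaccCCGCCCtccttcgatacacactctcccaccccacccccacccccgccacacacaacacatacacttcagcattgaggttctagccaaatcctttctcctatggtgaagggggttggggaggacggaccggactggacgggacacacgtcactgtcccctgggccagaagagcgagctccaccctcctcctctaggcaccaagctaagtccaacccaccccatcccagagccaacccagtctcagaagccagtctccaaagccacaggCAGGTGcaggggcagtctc
Cldn4: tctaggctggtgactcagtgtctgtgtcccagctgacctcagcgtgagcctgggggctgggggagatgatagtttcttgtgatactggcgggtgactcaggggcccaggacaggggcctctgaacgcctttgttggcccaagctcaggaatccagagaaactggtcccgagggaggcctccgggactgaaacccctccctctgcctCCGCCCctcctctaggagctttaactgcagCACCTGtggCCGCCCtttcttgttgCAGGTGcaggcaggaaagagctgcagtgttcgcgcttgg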

How the data were processed

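RNA of 9 Control and 8 GWI colons was sequenced as poly(A)-selected, paired-end libraries. Before deposit, the authors used Trimmomatic 0.36 for trimming, STAR 2.5.2b for alignment against GRCm38 and featureCounts for unique hits per gene. The deposited values are raw counts, without normalization. Trimmomatic, STAR, the build and DESeq2 are named in the submitters' processing notes. The annotation release and the strand setting are not given in the sources used here. All 17 columns were matched to a sample, with 0 left over. The table has 23719 entries and 23671 distinct symbols, and 48 entries that repeat a symbol were kept apart. No 2 libraries were duplicates among 136 pairs checked.

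Counts were filtered with filterByExpr, scaled by TMM and tested with the quasi-likelihood F test of edgeR 4.0.16 (glmQLFit, robust) in R 4.3.3, with group as the only term and the 17 libraries as independent, and adjusted by Benjamini-Hochberg over 14146 genes. A gene is called at an adjusted p under 0.05. All 10 members passed the filter. Log2 CPM used a prior count of 2. The SE of an edgeR log2 fold change was derived as its absolute value divided by the square root of the F statistic. A further fit scaled libraries on 11 colon epithelium markers. Alternatives were DESeq2 1.42.0 (size factors and Wald test), upper-quartile scaling, limma-voom with sample quality weights (limma 3.58.1), no filter, epithelium or smooth muscle score as a covariate, a replicate block, the threshold of the study's methods on edgeR and on DESeq2 values, each mouse left out, pairs of mice left out, and counts summed over libraries whose names share a first part. The procedure was tested on simulated data. Positions come from GENCODE M21 and sequences from RefSeq, read with Python 3.11.15.

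The members and lists were chosen with earlier results of these data known. The lists are other claudins, other tight junction membrane proteins, scaffolds and polarity proteins, adherens junction and desmosome genes, transcription factors of epithelial junction genes, cytokines, sodium channel and mineralocorticoid genes, and markers of colon epithelium, smooth muscle, small intestine, distal colon (Hox genes), endothelium, mesothelium, enteric glia and leukocytes. From each list the called gene with the smallest p in each direction and the most abundant gene (by mean CPM) are named, with every claudin that passed the filter and the 2 genes most like each member. Of the genes this rule takes, 1 is not reported here. Hoxb13, Sis, Il6, Cdc42, Wbscr25, Epcam and the claudins at 0 counts were named outside this rule, after values were seen. Without molecular identifiers, technical noise can exceed counting error. Values are mRNA levels and do not measure protein.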

Additional observations from a re-analysis of the deposited data

Results flagged for a closer look

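Values of the named genes were checked, in each group of 9 or 8 mice, for a mouse far from the rest of its group, by the gap to its nearest neighbour as a share of the range. Of 86 groups 17 had such a mouse. The limits used flag about 1 in 20 groups when values are independent and normally distributed. CPM values of genes from the same mice need not be so, and no excess over chance is read from this count. No explanation was tested.

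Among the members, Control 1 was high for Cldn23, at 105 CPM with the next Control mouse at 57.5, and for Tjp1, at 192 CPM with the next at 116. The same mouse was high among Control mice for Cldnd1 (88.3 CPM, next 59.5), Dsp (786 CPM, next 385), Hnf4a (1141 CPM, next 678), Sgk1 (93.9 CPM, next 54.7), Vil1 (919 CPM, next 554) and Hoxa13 (71.0 CPM, next 5.78). Among GWI mice Hoxa13 was high in GWI 5 (75.2 CPM, next 16.1).

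Other single mice stood far from their group. Control 2 was high for Marveld2 (44.3 CPM, next 35.6), Control 7 for Fabp6 (314 CPM, next 118), and Control 9 for Fabp2 (2332 CPM, next 965) and for Ifng (674 CPM, next 41.3). Control 9 was low for Il4 (1.39 CPM, next 2.65) and GWI 4 was high for it (50.5 CPM, next 15.3). GWI 8 was high for Upk1b (18.2 CPM, next 10.5) and GWI 7 for Erbb3 (476 CPM, next 411).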

How the results depend on the processing

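Over the alternatives the count of members called higher lay between 0 and 9 of 10, and 0 were called lower in any of them without rescaling on epithelium. Where a value below differs, the cause was not tested, apart from fewer mice where mice were left out. limma-voom with sample quality weights called 9 members higher, 3911 of all genes higher and 4180 lower, 2 other claudins, 21 scaffold and polarity genes, 11 adherens junction and desmosome genes and 5 sodium channel and mineralocorticoid genes. The epithelium score as a covariate called 1 member, Cldn2, which was not called without it, and 588 and 364 of all genes, 2 other tight junction membrane proteins, 4 scaffold and polarity genes, 0 adherens junction and desmosome genes, 4 transcription factors and 1 sodium channel and mineralocorticoid gene, with Cldn7 at -0.0020. Its count of 0 stands against 6 at an unadjusted p, 6 in DESeq2 and 11 in limma-voom without the covariate. The smooth muscle score gave 10 adherens junction and desmosome genes, 6 transcription factors, 4 sodium channel and mineralocorticoid genes and Cldn15 at -0.18. Upper-quartile scaling gave 1214 and 2992 of all genes, 1 other claudin and Cldn15 at -0.052. The DESeq2 Wald test gave 1 other claudin, and no filter gave 1 cytokine. The threshold of the study's methods on edgeR values gave 2 members, 92 and 250 of all genes, 1 other tight junction membrane protein, 0 scaffold and polarity genes, 0 adherens junction and desmosome genes, 0 transcription factors and 1 sodium channel and mineralocorticoid gene. A block by replicate number gave 814 genes lower, 1 other claudin, 5 other tight junction membrane proteins and 5 transcription factors, and ended the calls of Cldn3 and F11r (adjusted p = 0.0836 and 0.0704) while Ocln was called (0.45, adjusted p = 0.0461). Correlations of same-number mice ran from -0.506 to 0.115 and 0 of 8 were best matched to their own number. Without Control 1 and Control 9 there were 8 members, 2 other claudins, 19 scaffold and polarity genes, 10 adherens junction and desmosome genes, 5 sodium channel and mineralocorticoid genes, and Cldn15 at -0.069. Relative to epithelium this gave 1 member lower, Ocln at 0.057 and Tjp1 at 0.095. In 4 alternatives chosen after seeing the data, the values were as follows. The 16 mice of the blocked fit without a block gave 2 other claudins, with Ocln called as well (adjusted p = 0.0175). Without Control 1 and GWI 5 there were 1 other claudin, 1 cytokine, 4 sodium channel and mineralocorticoid genes, Cldn15 at -0.026 and, relative to epithelium, 1 member lower and Tjp1 at 0.024. Counts summed by the first part of the sample name, with 6 Control and 4 GWI sets, gave 0 members, 14 and 1 of all genes, 0 other tight junction membrane proteins, 0 scaffold and polarity genes, 0 adherens junction and desmosome genes, 0 transcription factors, 1 cytokine, 0 sodium channel and mineralocorticoid genes and, relative to epithelium, 0 members higher. Its 0 members in edgeR stand against 3 at an unadjusted p, 0 in DESeq2 and 7 in limma-voom, without the matching shares of all genes. The threshold of the study's methods on DESeq2 Wald values gave 1 member, 108 and 265 of all genes, 1 other tight junction membrane protein, 0 scaffold and polarity genes, 0 adherens junction and desmosome genes, 0 transcription factors and 1 sodium channel and mineralocorticoid gene. The following alternatives had been planned. Scaling on Epcam alone put Cldn7 at 0.060, Ocln at 0.021 and Tjp1 at 0.087. With 1 mouse left out in turn, called members ran from 3 (without Control 3, GWI 5 or GWI 6) to 7 (without Control 1), all genes higher from 1472 to 2523 and lower from 1309 to 2295. Called genes of the lists ran from 0 to 2 for other claudins, 5 to 9 for other tight junction membrane proteins, 5 to 11 for transcription factors, 1 to 2 for cytokines and 2 to 4 for sodium channel and mineralocorticoid genes. Cldn15 ran from -0.032 to 0.13. Relative to epithelium 1 to 3 members were higher and 0 to 1 lower, with Ocln from -0.16 to 0.077 and Tjp1 from -0.046 to 0.050. Depth did not limit the 10 members, while 15 of the 19 other claudins had too few counts to test or were not in the table.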
